A study of Rattus norvegicus with 60 samples.

Results

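The microRNAs (miRs) of the rat retina were compared 7 days after ischemia-reperfusion (IR) injury with those of sham controls of the same day. The comparison took 12 of the 60 arrays of the series, 6 IR and 6 sham control arrays at 7d, chosen by their sample titles, and covered all 350 rat miRs on the array. The animals were male Long Evan's hooded rats of 250 to 300 g. In the IR group the anterior chamber was cannulated and the intraocular pressure was held at 110 mmHg for 60 min, after which circulation returned for 7 days. The sham control had the same procedure without the rise in pressure. Each array carried the RNA of the whole retina of 1 rat, so that neurons, glia, vessels and blood cells were measured together. A miR that was lower could therefore reflect fewer cells of a type or less RNA per cell, which cannot be told apart in such samples. The miRs typical of retina were present in both groups: miR-124 and miR-9, typical of neurons, miR-183, miR-182 and miR-96, typical of photoreceptors, and miR-204 were each detected on all 12 arrays.

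A miR is a short RNA that guides the silencing complex to messenger RNAs, mainly through its seed, the bases from position 2 to position 8 at its 5′ end. MiRs with the same seed form a family and can act on overlapping sets of messages, while members of a family are often transcribed from separate genes. IR injury of the retina deprives the tissue of oxygen and then returns it, and is used as a model of retinal ischemia and of acute glaucoma. Neurons of the ganglion cell layer are lost in it, while glia react and leukocytes enter the tissue. The 7d time point lies late in that course.

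The miRs on which the results turned are shown first. Their mature sequences were taken from RefSeq on the GRCr8 build, are written 5′ to 3′, and carry the seed in capitals. The first, shown for its rise, is an injury-responsive miR of many tissues (chr10:71902653-71902674, minus strand).

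miR-21: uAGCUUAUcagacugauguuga

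The next set holds members of the miR-17 and miR-92 families, which are transcribed in clusters and are known for roles in proliferation. miR-20a and miR-106b share 1 seed. miR-20a lies at chr15:98588318-98588340, plus strand, and miR-106b at chr12:22157103-22157123, minus strand, within the gene Mcm7.

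miR-20a: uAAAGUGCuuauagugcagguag
miR-106b: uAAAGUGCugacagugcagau
miR-92a: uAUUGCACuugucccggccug

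The miR-29 and let-7 families are shown because members that share a seed are compared with each other below. miR-29 is known for targeting messages of the extracellular matrix, and let-7 for promoting differentiation.

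miR-29a: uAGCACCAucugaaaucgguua
miR-29b: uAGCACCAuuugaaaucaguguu
miR-29c: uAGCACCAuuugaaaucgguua
let-7b: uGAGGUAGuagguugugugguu
let-7f: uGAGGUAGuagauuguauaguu

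The photoreceptor cluster and the activity-regulated pair follow. The cluster members lie together on chromosome 4, with miR-183 at chr4:59756106-59756127, minus strand, miR-96 at chr4:59755901-59755923, minus strand and miR-182 at chr4:59752249-59752273, minus strand. miR-132 and miR-212 share a seed, and are induced by neuronal activity.

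miR-183: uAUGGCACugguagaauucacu
miR-96: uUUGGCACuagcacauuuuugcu
miR-182: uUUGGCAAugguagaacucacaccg
miR-132: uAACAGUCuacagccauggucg
miR-212: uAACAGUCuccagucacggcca

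Both arms of the miR-129 hairpin are given. In the main analysis the arm marked with an asterisk had the largest fall among miRs detected on all 12 arrays.

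miR-129: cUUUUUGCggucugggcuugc
miR-129*: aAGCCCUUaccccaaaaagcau

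The last set holds miRs called with large fitted differences, 4 higher and then 4 lower. The 4 called lower were detected on no IR array, so their fitted falls rest on undetected values. miR-207 lies within Dnaja1 (chr5:60638847-60638869, plus strand) and miR-346 within Grid1 (chr16:10224315-10224337, plus strand). miR-379, miR-376a, miR-495 and miR-493 belong to the imprinted cluster of chromosome 6.

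miR-207: cUUCUCCUggcucuccucccuuu
miR-346: uGUCUGCCugagugccugccucu
miR-291a-3p: aAAGUGCUuccacuuugugugcc
miR-493: uGAAGGUCuacugugugccag
miR-184: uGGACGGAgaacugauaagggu
miR-379: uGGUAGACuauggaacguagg
miR-376a: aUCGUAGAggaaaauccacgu
miR-495: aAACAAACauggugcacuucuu

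The IR arrays at 7d were much dimmer than the sham control arrays. Array brightness, the log2 75th percentile of the unscaled signal over miRs detected on every array of the series, ranged from 7.27 to 8.54 on the IR arrays (median 8.32) and from 10.46 to 11.15 on the sham control arrays (median 10.74). The means were 8.16 ± 0.47 and 10.74 ± 0.24 (SD, n = 6), a 5.98-fold lower signal in IR (exact two-sided permutation test, p = 0.00216, the smallest that 6 against 6 arrays allow). Between 59 and 125 miRs were detected per IR array (median 97.5) and between 162 and 232 per sham control array (median 164; exact permutation test, p = 0.00216). Control features of the array were dimmer in IR too, by 1.82- to 4.08-fold over 5 kinds of control. The same differences were present in each of the 3 scans, each of which held 2 IR and 2 sham control arrays, with 65 to 102 fewer detected miRs. No slide held arrays of both groups, so slide and group cannot be told apart within these 12 arrays. The values below are therefore relative: each array was scaled to its own 75th percentile, and a higher value means a higher signal relative to that percentile. The part of array brightness in the results was not tested beyond the values given beside them.

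**Figure D1:**
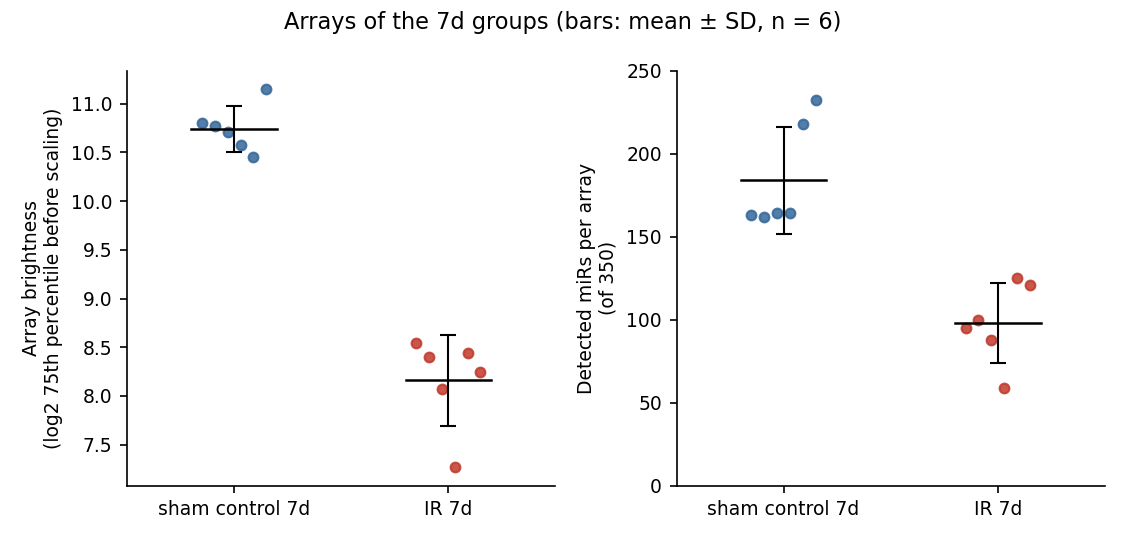
Array brightness (left, log2 of the unscaled 75th percentile) and the number of detected miRs of 350 (right) for each of the 6 sham control and 6 IR arrays at 7d, with the mean and SD. No IR array reached the lowest sham control array in either measure.

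A detected signal on 1 or more of the 12 arrays was found for 234 of the 350 miRs. Sham control arrays gave all 234 and IR arrays 128. The test took 159 miRs that were detected on every array of at least 1 group of the series. Of these, 59 were detected on all 12 arrays, 97 on all sham control but not all IR arrays, and 3 passed through another time point. A total of 28 passed only through the sham control group at 7d, and counts of lower miRs include them. At a threshold of 2-fold and adjusted p of 0.05 (limma, Benjamini-Hochberg), 29 of the 159 (18.2%) were called, 12 higher (7.55%) and 17 lower (10.7%). Without the fold threshold 95 passed (59.7%), 32 higher (20.1%) and 63 lower (39.6%). The arrays of the groups did not overlap for 66 (41.5%), 24 higher (15.1%) and 42 lower (26.4%). By rank within the array, which needs no scaling, 34 of the 57 miRs detected on every array of the series passed (59.6%, exact permutation test). All 29 called miRs kept their sign within each of the 3 scans. The scans split the same 12 arrays on which the calls were made. A miR whose groups did not overlap had to keep its sign there, so this adds no support. The split moved with the scaling: it was 10 higher and 33 lower with quantile normalization, 25 and 44 in the authors' own normalized table, 95 and 0 with normexp background correction, 0 and 149 with no scaling between arrays, and 5 and 0 when array brightness was a covariate. The called sets differed in what lay behind them: 6 of the 12 higher miRs were detected on all 12 arrays, while 14 of the 17 lower miRs were detected on no IR array and the other 3 on 1.

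miR-21 rose at 7d. Its scaled log2 signal ran from 9.68 to 10.03 on the IR arrays (median 9.84) and from 8.49 to 8.69 on the sham control arrays (median 8.62). No IR array came down to the range of the sham controls, and IR was higher by 1.23 ± 0.16 (SE) on the log2 scale, a 2.35-fold higher relative level (limma, adjusted p = 4.28e-08). Before scaling its signal was from 147 to 403 units on the IR arrays (median 302). On the sham control arrays it was from 529 to 917 units (median 683). The drop was smaller than that of most miRs, as a rise after scaling entails. With array brightness as a covariate the difference was 0.96 (adjusted p = 0.00524), and with slide as a block it was 1.52 (adjusted p = 2.50e-05). In the authors' own normalized table it was 0.98, just under the fold threshold. Relative to the median of the 59 miRs detected on all 12 arrays miR-21 was higher under each of the 7 ways of scaling. Those that differ only by a factor per array give the same relative value, 1.29. It was 1.37 with quantile normalization, 1.37 with averaged log2 processed probe signals and 0.89 with normexp.

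Among those 59 miRs, 33 passed an adjusted p of 0.05 (55.9%), 18 higher and 15 lower, and 22 had no overlap between the groups (37.3%). The higher miRs of this group described here, other than miR-21 and miR-183, were chosen after their values were seen. miR-20a ran from 7.64 to 7.74 on the IR arrays (median 7.72) and from 6.61 to 7.07 on the sham control arrays (median 6.77). The groups did not overlap, and the difference was 0.90 ± 0.11 (SE, limma, adjusted p = 4.55e-09). It was 0.82 with brightness as a covariate (adjusted p = 7.58e-04). miR-92a ran from 8.46 to 8.64 on the IR arrays (median 8.55) and from 7.85 to 8.11 on the sham control arrays (median 8.00), again without overlap, with a difference of 0.55 ± 0.08 (SE, adjusted p = 1.04e-07). miR-99a ran from 9.83 to 10.18 on the IR arrays (median 10.06) and from 9.07 to 9.61 on the sham control arrays (median 9.48). Its difference was 0.61 ± 0.10 (SE, adjusted p = 2.19e-06), 0.62 with brightness and 0.26 with slide as a block (adjusted p = 0.0766). miR-331 was higher by 0.81 ± 0.16 (SE, adjusted p = 2.38e-05) but showed -0.12 with brightness as a covariate. Smaller rises, from 0.17 to 0.45, passed for miR-324-3p, miR-22, miR-24, let-7b, miR-183, miR-151, miR-106b and let-7i, and none of these 8 passed with brightness as a covariate.

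The largest fall among the 59 in the main analysis was that of miR-129*, the second arm of a hairpin that is abundant in neurons. It ran from 7.69 to 8.32 on the IR arrays (median 7.89) and from 8.62 to 9.27 on the sham control arrays (median 8.83). The groups did not overlap, and the difference was -0.91 ± 0.14 (SE, limma, adjusted p = 1.72e-07). It was -0.80 with brightness (adjusted p = 0.00524) and -0.72 with slide (adjusted p = 6.37e-05). Under normexp background correction it was 0.05 as fitted and -0.15 relative to the median of the 59. miR-181a, a neuronal and lymphocyte miR, ran from 9.96 to 10.56 on the IR arrays (median 10.18) and from 10.63 to 10.80 on the sham control arrays (median 10.67), and fell by 0.46 on the log2 scale (SE 0.12, adjusted p = 9.08e-04). With brightness its difference was -0.69. miR-29b ran from 10.33 to 10.55 on the IR arrays (median 10.43) and from 10.76 to 11.04 on the sham control arrays (median 10.88), with no overlap and a difference of -0.45 ± 0.11 (SE, adjusted p = 3.30e-04). It did not pass with brightness (-0.43, adjusted p = 0.0560) or with slide (-0.40, adjusted p = 0.0669). miR-125b-5p, prominent in glia, differed by -0.43 ± 0.10 (SE, adjusted p = 1.68e-04), yet by only -0.13 with slide as a block (adjusted p = 0.302). miR-434 differed by -0.42 ± 0.09 (SE, adjusted p = 6.24e-05), with its direction relative to the median turned under normexp background correction. None of these falls reached the fold threshold.

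**Figure D2:**
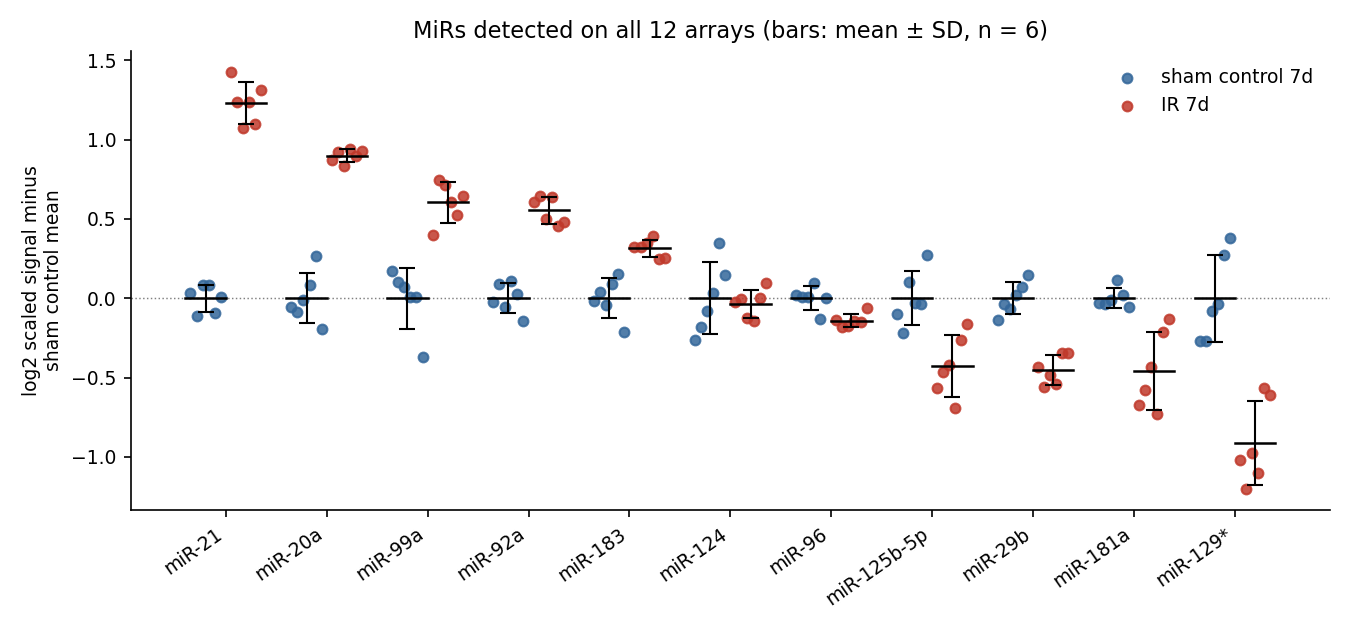
Scaled log2 signal of 11 miRs detected on all 12 arrays, each array's value minus the sham control mean of that miR, with bars for mean and SD (n = 6). miR-21 and miR-20a stood above, and miR-129* and miR-29b below, every sham control array, while miR-124 overlapped.

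Of the 33 miRs that passed, 26 kept their sign relative to the median of the 59 under all 7 scalings, 14 higher and 12 lower. Scalings that differ only by a factor per array give the same relative values. A sign could therefore turn only under quantile normalization, the mean of the log2 processed probe signals or normexp. The 7 whose relative sign turned were let-7a under quantile normalization, miR-106b under the mean of the log2 processed probe signals, and let-7b, let-7i, miR-183, miR-434 and miR-500 under normexp. With brightness as a covariate 12 of the 33 kept their sign and passed, and with slide as a block 15 did. The other miRs of these 12, besides miR-21, miR-20a, miR-92a, miR-99a, miR-129*, miR-181a and miR-434, were miR-103, miR-107, miR-30a, miR-30e and miR-210, each of them lower and named here after the values were seen. miR-103 and miR-107, a closely related pair with roles in lipid and glucose metabolism, differed by -0.42 and -0.23. miR-210, a miR induced by low oxygen, differed by -0.30 ± 0.13 (SE, limma, adjusted p = 0.0374).

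The 12 miRs called higher differed less between the groups before scaling than most miRs did. This follows from the call, which was made on scaled values of dimmer IR arrays, and is given as a description. Over the 59 miRs detected on all 12 arrays, the unscaled sham control median divided by the IR median was 5.34 at the median and ran from 0.847 to 9.29. In the 12 called higher miRs it ran from 0.686 to 2.26, and was largest in miR-21. miR-207 gave from 60.9 to 162 units on the IR arrays (median 142) and from 91.4 to 156 units on the sham control arrays (median 120.4) before scaling. After scaling it ran from 8.08 to 8.92 on the IR arrays (median 8.63) and from 5.63 to 6.47 on the sham control arrays (median 6.07), and differed by 2.56 ± 0.72 (SE, limma, adjusted p = 0.00211). With brightness as a covariate its difference was -0.94 (adjusted p = 0.542), of opposite sign. miR-346, which lies within a glutamate receptor gene, had unscaled medians of 104 units in IR and 97.6 in sham control. After scaling it ran from 7.63 to 8.53 on the IR arrays (median 8.21) and from 5.57 to 6.35 on the sham control arrays (median 5.79). The groups did not overlap, and the scaled difference was 2.29 ± 0.63 (SE, adjusted p = 0.00178), and -0.996 with brightness (adjusted p = 0.406). miR-328 had unscaled medians of 199 and 258 units and ran from 8.84 to 9.48 on the IR arrays (median 9.18) and from 7.05 to 7.92 on the sham control arrays (median 7.24) after scaling, a difference of 1.84 ± 0.27 (SE, adjusted p = 1.12e-07), which was 0.09 with brightness. The unscaled signals of these miRs differed less between the groups than array brightness did, as a call upward on scaled values requires.

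miR-466b and miR-672, of groups of miRs largely restricted to rodents, lay between these and miR-21. Their unscaled medians were 183 and 131 units in IR against 395 and 279 in sham control. The scaled differences were 1.13 ± 0.32 (SE) and 1.13 ± 0.34 (SE), and with brightness 0.81 and 1.11, neither of which passed. The remaining 6 called higher miRs were not detected on all arrays. miR-291a-3p, of an embryonic stem cell cluster, had a detected signal on 3 IR arrays and on 2 sham controls, and unscaled medians of 28.7 and 19.7 units. miR-493 was detected on 4 and 3 arrays, with unscaled medians of 30.7 and 24.3, and let-7d* on 5 and 6 arrays, with 45.97 and 32.1. Signals below detection entered their scaled values, and the scaled log2 medians were 6.29 in IR and 3.36 in sham control for miR-291a-3p and 6.39 and 3.63 for miR-493, so the size of their differences rests on signals near or under the detection limit. miR-378* was found on 2 IR arrays and on each sham control. miR-539 ran from 6.22 to 6.84 on the IR arrays (median 6.58) and from 4.39 to 5.31 on the sham control arrays (median 4.91), detected on 4 IR arrays, and differed by 1.72 ± 0.37 (SE, limma, adjusted p = 9.24e-05). miR-206, best known from muscle, was detected on 5 IR arrays and differed by 1.34 ± 0.42 (SE, adjusted p = 0.00577). miR-206 and miR-539 were the 2 called miRs that were also called with brightness as a covariate, with differences of 1.92 (adjusted p = 0.0269) and 1.98 (adjusted p = 0.0108). In 5 of the 12 higher miRs the unscaled IR median was above that of the sham control.

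**Figure D3:**
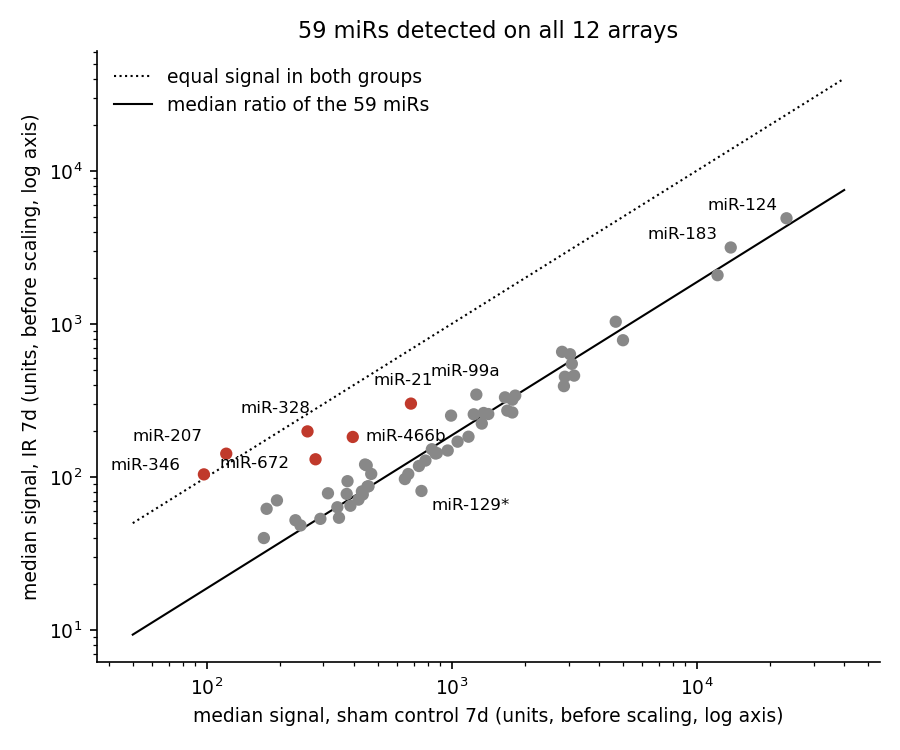
Median signal before scaling in IR against sham control at 7d for the 59 miRs detected on all 12 arrays, both axes logarithmic. The solid line is the median ratio, the dotted line equal signal, and red points are the 6 called miRs, of which miR-207 and miR-346 sat just above the line of equal signal.

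The 17 miRs called lower lay near the detection limit of the IR arrays. The lowest scaled signal of any detected miR was 10.6 to 107.6 units on the IR arrays and 0.63 to 6.90 units on the sham control arrays, and values were held at a floor of 7.36 units (2.88 on the log2 scale). A bound on the fold was taken as the sham control mean over the mean, on the log2 scale, of the higher of each IR array's limit and the miR's own signal there. Of the 14 miRs detected on no IR array, 13 had a bound under 1, so that neither a fold nor a direction beyond the detection limit can be given for them, and limma called them lower with their undetected values, some at the floor. The exception was miR-184, a miR of the lens and cornea. It ran from 3.66 to 8.87 (median 6.06) on the sham control arrays, the widest range of the 17, and was held at the floor of 2.88 throughout the IR group. It was not well above background in IR, and its bound, taken on means over arrays and not tested, was 2.17-fold. The limma difference, with IR at the floor, was -3.34 (adjusted p = 0.00713). It was -1.58 with brightness as a covariate (adjusted p = 0.568) and 0.44 under normexp (adjusted p = 0.501). Before scaling its sham control signals ran from 29.6 to 809 units, while miR-204 and miR-211, of the same list of pigment epithelium and lens miRs, differed by -0.11 and -0.10 between the groups.

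miR-379 of the imprinted cluster ran from 4.83 to 5.54 (median 5.05) on the sham control arrays, with an IR median of 2.88, the floor (limma, adjusted p = 1.04e-07). miR-376a of the same cluster ran from 4.17 to 5.40 (median 4.30) with an IR median of 2.88 (adjusted p = 1.44e-06). miR-138, a neuronal miR that controls the size of dendritic spines, ran from 4.45 to 4.90 (median 4.61) with an IR median of 2.88 (adjusted p = 1.75e-10). In each of these 3, all 6 IR values were below all 6 sham control values, and none of the IR values was a detected one. The same held for miR-30e*, miR-375, miR-153, miR-494, miR-495, miR-148b-3p, miR-136*, miR-30a* and miR-323, while in miR-363 the groups overlapped. The adjusted p-values of all these miRs rest on undetected IR values, some held at the floor. Under normexp miR-379, miR-376a and miR-138 were higher in IR, by 1.31, 1.38 and 1.42. The other 3 of the 17 miRs were detected on 1 IR array each. Their medians in IR and in sham control were 4.49 and 5.86 for miR-181a*, 3.55 and 4.86 for miR-341 and 4.63 and 5.47 for miR-101b, with the undetected IR values included, and the groups overlapped in miR-341. With the highest detection limit of the 12 arrays as the floor, or with brightness as a covariate, 0 miRs were called lower by limma, and 0 reached the fold threshold downward at an unadjusted p under 0.05. The adjusted p-values of the 17 ran from 1.75e-10 to 0.0104.

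**Figure D4:**
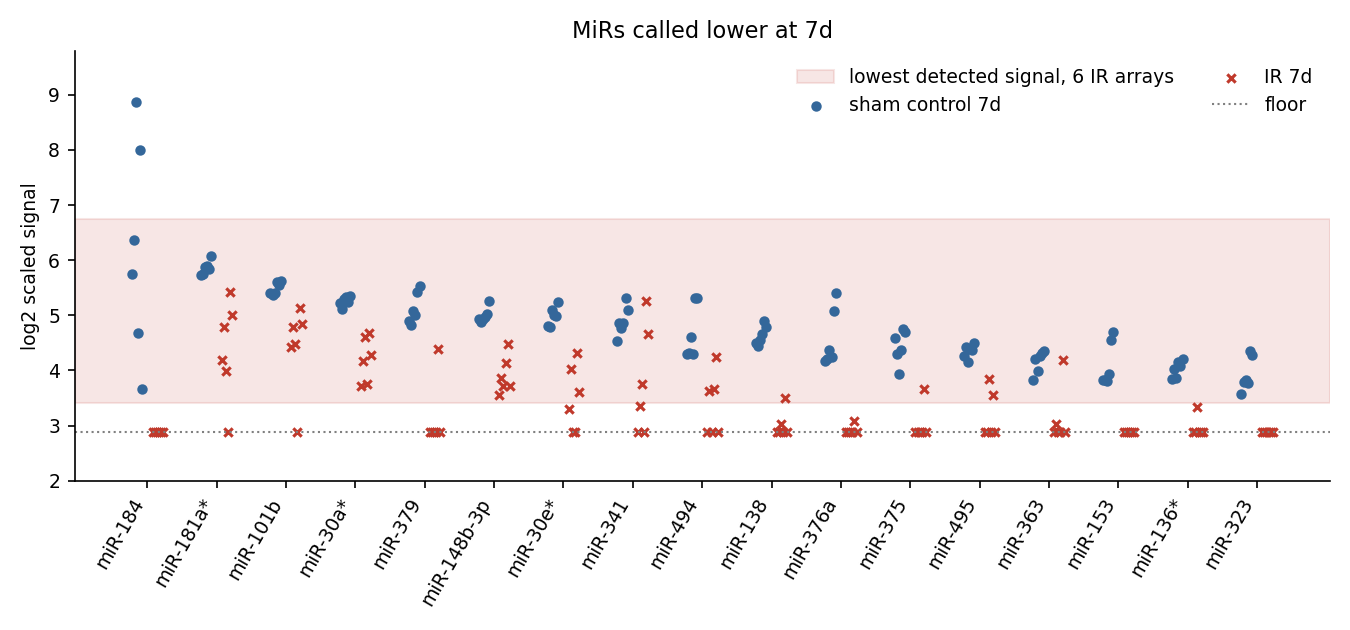
Scaled log2 signal of the 17 miRs called lower on each sham control (circles) and IR (crosses) array at 7d. The dotted line is the floor and the shaded band spans the lowest detected signal of the 6 IR arrays, within which most sham control values lay.

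The miRs that mark retinal neurons and photoreceptors were mostly not called. miR-124, the main neuronal miR, ran from 13.67 to 13.90 on the IR arrays (median 13.79) and from 13.54 to 14.15 on the sham control arrays (median 13.78). The groups overlapped, and the difference was -0.03 ± 0.11 (SE, limma, adjusted p = 0.808). miR-9 differed by -0.23 ± 0.15 (SE, adjusted p = 0.183). With brightness as a covariate miR-124 was at -0.41 (adjusted p = 0.0634) and with slide as a block at -0.24 (adjusted p = 0.275). Under normexp the sign of miR-124 and of miR-9 relative to the median turned. Of the 12 neuronal miRs on the array 10 were tested, 0 were called higher and 2 lower by limma (miR-138 and miR-153, neither detected in IR), against 10.7% called lower among all tested miRs. With the adjusted p alone 5 were lower, the others being miR-124*, miR-128 and miR-129*, against 39.6% of all tested. miR-128 was detected on 5 IR arrays and differed by -0.78 ± 0.14 (SE). No neuronal miR passed upward, and at an unadjusted p under 0.05 there were 0.

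In the photoreceptor cluster miR-183 passed the test and its neighbours did not. miR-183 ran from 13.19 to 13.33 on the IR arrays (median 13.26) and from 12.73 to 13.09 on the sham control arrays (median 12.95). The groups did not overlap, and it was higher by 0.31 ± 0.09 (SE, limma, adjusted p = 0.00251), although the difference was 0.14 with brightness and -0.06 with slide, neither of which passed, and its sign relative to the median turned under normexp. miR-96 differed by -0.14 ± 0.11 (SE, adjusted p = 0.285) and miR-182 by -0.13 ± 0.10 (SE, adjusted p = 0.250). Within each array the ratio of miR-183 to miR-96 rose by 0.46 on the log2 scale and that of miR-183 to miR-182 by 0.45 (exact two-sided permutation test, adjusted p = 0.00343 over 57 pairs within families or lists). With slide as a block in limma these ratios changed by 0.10 and 0.08 (adjusted p = 0.775 and 0.946), with brightness by 0.44 and 0.36 (adjusted p = 0.0778 and 0.291), and under normexp the ratio to miR-182 turned, to -0.71 (adjusted p = 0.0138). The ratio of miR-182 to miR-96 changed by 0.01 (exact permutation test, adjusted p = 0.929).

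Such ratios do not depend on the factor by which an array is scaled. Of the 57 pairs 44 (77.2%) differed between the groups at an adjusted p of 0.05, the share beside which the named pairs stand. The 57 are pairs within the chosen families and lists, the neuronal list included, and pairs across lists were not compared. They keep any difference between the arrays that varies with the level of the signal. In limma fits of the ratios over all 60 arrays, 8 of the 44 kept their sign and passed with slide as a block, 8 with brightness and 24 under normexp. Only the ratios of miR-181b to miR-181a and of miR-99a to miR-125b-5p did so in all 3, and those of miR-20a to miR-106b and miR-9* to miR-129* did so with slide and with brightness. The sign turned for 8 pairs with slide, 3 with brightness and 10 under normexp. In the let-7 family 18 of 21 pairs differed. let-7b and let-7f, which share the seed shown above, gave a within-array ratio higher in IR by 0.74 (exact permutation test, adjusted p = 0.00343). It was 0.26 with slide (limma, adjusted p = 0.633) and 0.36 with brightness (adjusted p = 0.379). let-7b itself differed by 0.36 and let-7f by -0.38. Of the 8 tested let-7 miRs 2 were higher and 2 lower by adjusted p, against 20.1% and 39.6% of all tested, with the sign of let-7a relative to the median turned under quantile normalization and those of let-7b and let-7i under normexp. In the miR-29 family the ratio of miR-29a to miR-29b rose by 0.60 and that of miR-29a to miR-29c by 0.55, while miR-29c to miR-29b changed by 0.05 (exact permutation test, adjusted p = 0.446). With brightness the ratios of miR-29a were 0.64 and 0.52 (limma, adjusted p = 0.00304 each), and with slide 0.24 and 0.20 (adjusted p = 0.208 and 0.147). miR-29b and miR-29c fell and miR-29a differed by 0.15 ± 0.08 (SE, limma, adjusted p = 0.111), a value whose relative sign turned under normexp.

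In the miR-17 and miR-92 families all 6 pairs differed. The ratio of miR-20a to miR-106b, which have the same seed, rose by 0.69, that of miR-20a to miR-19b by 1.04 and that of miR-92a to miR-19b by 0.69 (exact permutation test, adjusted p = 0.00343 each). Under normexp the first was 0.08 (limma, adjusted p = 0.413). With slide the second was 0.57 (adjusted p = 0.0529) and the third 0.32 (adjusted p = 0.151). Of the 7 tested members 3 were higher and 0 lower by adjusted p in limma, against 20.1% and 39.6% of all tested, and the rise of miR-106b turned sign relative to the median when the processed probe signals were averaged. Of 5 miR-30 members 3 were lower by adjusted p, against 39.6% of all tested. The ratio of miR-30d to miR-30e rose by 0.65, against 0.18 with brightness (limma, adjusted p = 0.379). In the miR-125 and miR-99/100 families, which are prominent in glia and progenitors, miR-99a was higher and miR-125b-5p and miR-99b lower, and the ratio of miR-99a to miR-125b-5p rose by 1.03, and by 0.39 with slide (limma, adjusted p = 0.0356). The ratio of miR-129 to its opposite arm miR-129* rose by 0.72, and miR-129 itself differed by -0.20 (limma, adjusted p = 0.169). That ratio did not hold in the other fits: it was -0.06 with slide (adjusted p = 0.946), where miR-129 was at -0.78 (adjusted p = 1.64e-04), 0.23 with brightness (adjusted p = 0.525) and 0.12 under normexp (adjusted p = 0.386). The ratio of miR-124 to miR-9 changed by 0.20 (exact permutation test, adjusted p = 0.154).

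**Figure D5:**
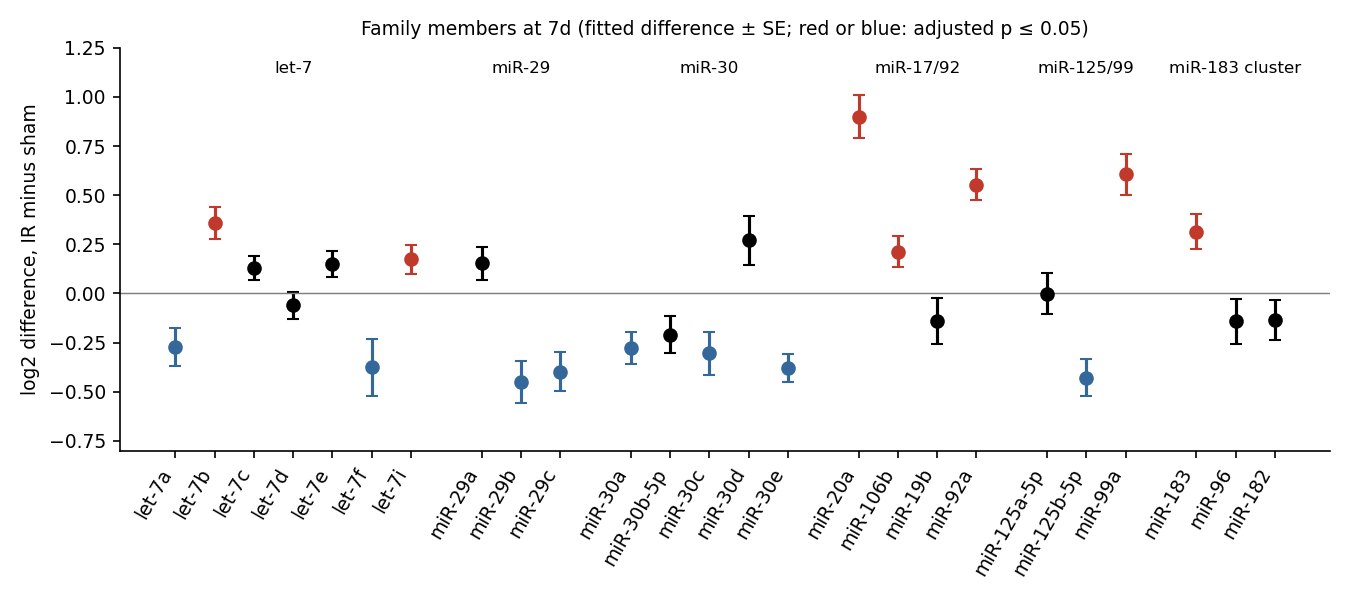
Fitted log2 difference, IR minus sham control at 7d, with its SE, for members of 6 families or clusters detected on all 12 arrays. Red and blue mark members above and below 0 at an adjusted p of 0.05. All 6 held members on different sides of 0, but only let-7 and miR-125/99 held both red and blue members.

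The activity-regulated pair miR-132 and miR-212 share a seed. miR-132 ran from 4.68 to 6.03 on the IR arrays (median 5.55) and from 6.09 to 6.44 on the sham control arrays (median 6.20), was detected on 2 IR arrays, and differed by -0.73 ± 0.11 (SE, limma, adjusted p = 1.67e-07). miR-212 was detected on 5 IR arrays and differed by 0.19 ± 0.18 (SE, adjusted p = 0.374). miR-34a, a target of p53, differed by 0.05 ± 0.08 (SE, adjusted p = 0.613). It was at -0.34 with slide as a block (adjusted p = 0.00591) and at -0.27 with brightness (adjusted p = 0.0634). Of the leukocyte miRs, miR-142-3p and miR-142-5p were detected on 0 of the 12 arrays and miR-146a on 1 sham control array. miR-146b, a regulator of Toll-like receptor signalling, was detected on 5 IR arrays and was higher by 0.50 ± 0.12 (SE, adjusted p = 3.99e-04), while miR-150, a lymphocyte miR, had detected signals in all 6 sham controls and in 0 of the 6 IR retinas, with a bound under 1. miR-223, of neutrophils and macrophages, was detected on 2 arrays of each group and was not tested. Its unscaled signal ran from 8.71 to 31.4 units in IR and from 9.502 to 32.1 in sham control. Among vessel wall miRs, miR-126 differed by -0.13 and miR-143 by 0.08, and neither passed. The other muscle miRs, namely miR-1, miR-133a and miR-133b, and the red blood cell miRs miR-144 and miR-451, were detected on no IR array and on at most 2 sham control arrays each.

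The imprinted cluster of chromosome 6, a large group of brain-enriched miRs expressed from the maternal chromosome, had 49 members on the array, of which 31 were detected and 21 tested. At the fold threshold 2 were higher (miR-493 and miR-539) and 7 lower, and by adjusted p alone 2 were higher and 14 lower. The shares for all tested miRs were 7.55% and 10.7%, and 20.1% and 39.6%. Of the 21, 11 were detected on no IR array, and only miR-434 was detected on all 12. Among the members detected on 5 IR arrays, miR-127 differed by -0.47, miR-300-3p by -0.60, miR-154 by -0.01 and miR-487b by 0.15. The median difference of the 21 was -0.75 against -0.15 for all 159 tested miRs and -0.06 for the 59 detected on all 12 arrays. Undetected values were included, some of them held at the floor. Of the 3 tested neuroendocrine miRs 2 were lower by adjusted p, against 39.6% of all tested. miR-7a differed by -0.73 ± 0.12 (SE, limma, adjusted p = 7.75e-07). It was detected on 4 IR arrays, so its value rests in part on undetected signals. miR-375 was not detected in IR. Neither was miR-7b, which differed by 0.27 and did not pass. The rodent miR-290 and miR-466 group had 10 members on the array, of which miR-291a-3p, miR-466b and miR-672 were tested. The untested members gave no detected signal in IR. All 3 tested members were called higher, against 7.55% of all tested miRs. None of them passed with brightness as a covariate (limma, adjusted p = 0.469, 0.278 and 0.133). The value of miR-291a-3p rests in part on undetected signals. In the family of miR-15, miR-16 and miR-195 miR-15b and miR-497 were higher, by 0.49 and 0.31, and of the miR-23/27/24 clusters miR-24 and miR-27a were higher and miR-27b lower. Of 4 miR-181 members 2 were lower. These members of the miR-15, miR-23/27/24 and miR-181 lists passed by adjusted p alone, against 20.1% higher and 39.6% lower of all tested.

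The study named 10 miRs as hubs of its 7d network, a list chosen on these same samples and so no independent evidence of direction. All 10 were detected on at least 1 array, and 9 were tested, the exception being miR-223. Called higher were miR-291a-3p, miR-207 and miR-539, and called lower were miR-495 and miR-138, against 7.55% and 10.7% of all tested. With the adjusted p alone, which 39.6% of all tested passed downward, miR-410, miR-185 and miR-329 also passed on their undetected IR values, with adjusted p-values of 1.04e-07, 0.00400 and 0.00715 (limma), and miR-873 was at 0.0980. The 6 hubs miR-138, miR-185, miR-329, miR-410, miR-495 and miR-873 were detected by every sham control array but by none of the IR arrays. The bound of miR-410, taken on means over arrays, was 1.11-fold, and the bounds of the other 5 were under 1. Under normexp miR-410 turned, to 1.11 higher in IR on the log2 scale (limma, adjusted p = 5.92e-04). Neither a fold nor a direction can be given for any of the 6. Of the hubs only miR-207 was detected on all 12 arrays, with the nearly equal unscaled signals given above.

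The effect of IR at 7d was set against that at 24 h and at 48 h of reperfusion in the same fit, each with its own 6 IR and 6 sham control arrays. With each earlier time 5 of 159 effects differed at an adjusted p of 0.05 (3.14%), and 1 of these by a factor of at least 2 (0.629%). The rise of miR-21 was smaller at 7d. It was 1.23 at 7d, 2.21 at 24 h and 2.20 at 48 h, a change of -0.98 ± 0.23 (SE) from 24 h (limma, adjusted p = 0.00528) and of -0.97 ± 0.23 from 48 h (adjusted p = 0.00884). At 24 h the IR arrays ran from 10.78 to 11.24 and the sham control arrays from 8.58 to 9.01. At 48 h the IR arrays spread more widely, from 9.27 to 11.43, and the sham control arrays ran from 8.28 to 8.88. The 48 h IR range took in that of the 7d IR arrays, 9.68 to 10.03. The effect on miR-132 was 0.12 at 24 h, when all 6 IR arrays detected it, and -0.73 at 7d, when 2 did. Its change of -0.85 ± 0.15 (SE, limma, adjusted p = 1.31e-04) rests in part on undetected signals. miR-34a was 0.43 higher at 24 h and differed by 0.05 at 7d (adjusted p of the change 0.0457). miR-335 was detected on no IR array at 24 h, with 3.20 ± 0.41 against 4.38 ± 0.47 in sham control (SD, n = 6), and differed by 0.63 at 7d (limma, adjusted p of the change 0.00219).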

How the data were processed

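Total RNA of whole retinas (100 ng, RNA integrity number over 8) was labelled with Cy3 and hybridised to 1-colour Agilent rat miRNA arrays. The deposited scanner files hold the authors' Feature Extraction 9.5.3.1 intensity per feature and per miR (total gene signal, with a detection flag). The authors' normalized table, made in GeneSpring GX 10.0, holds log2 values scaled to the 75th percentile per chip for 211 rat miRs, with column medians from -0.86 to -0.41, and served only for comparison.

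Each array's total gene signal was divided by its 75th percentile, taken from the 57 miRs that every array of the 60 detected, and returned to the common scale, held at a floor of 7.36 units (the weakest detected signal of an array, as the median over arrays) and put on the log2 scale. The 159 of 350 miRs that 1 or more groups detected in all 6 rats were tested with limma 3.58.1 (R 4.3.3), in 1 fit over all 60 arrays with 10 groups, and Benjamini-Hochberg adjustment. Calls were made at 2-fold and adjusted p of 0.05. Single measures and within-array ratios were compared by exact two-sided permutation tests. A difference is IR minus sham control. Scan marks the scanning session read from the scanner files. The number of arrays limits the precision. The limma fit was tested on simulated data.

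Each array was of a separate rat. The miRs and lists were chosen with earlier results of these data known. Named were the called miRs detected on all 12 arrays, the 5 largest rises and 5 largest falls among calls without overlap, the 5 lowest differences among miRs detected on all 12 arrays, 14 single miRs and the hubs of the study's network. Sequences came from RefSeq on GRCr8: 222 of 350 miRs matched, 68 by exact name and 154 by the spacing of probe positions, given on rn4, within clusters. Alternatives covered scaling, background, floor, filter, blocks, array brightness, test and each array left out.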

Additional observations from a re-analysis of the deposited data

Results flagged for a closer look

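In 4 of 54 groups of 6 arrays, 1 array stood far from the other 5, and chance gives about 1 such group in 20. Sham control replicate 5 had a miR-328 level of 7.92 on the log2 scale (the others 7.05 to 7.28) and a miR-410 level of 5.97 (the others 5.60 to 5.72). IR replicate 6 had a miR-96 level of 12.68 (the others 12.56 to 12.60). IR replicate 4 had an array brightness of 7.27 (the others 8.07 to 8.54).

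The effect of IR differed between time points for these miRs, by the test of the difference in limma. Relative to 24 h, the 7d effect was lower by -0.85 for miR-132, by -0.98 for miR-21 and by -0.38 for miR-34a, and higher by 1.81 for miR-335 and by 0.34 for miR-338. miR-335 was detected on no IR array at 24 h, and miR-99b* on none at 7d, so their values rest on signals under the detection limit and are no folds. miR-132 was detected on 2 IR arrays at 7d, so its value rests in part on such signals. miR-338 differed by 0.01 at 7d and by -0.33 at 24 h. Relative to 48 h it was lower by -0.97 for miR-21, by -0.81 for miR-551b and by -1.64 for miR-99b*, and higher by 0.36 for miR-338 and by 0.50 for miR-497.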

How the results depend on the processing

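The 29 calls at 7d (12 higher, 17 lower) became 149 (0 higher, 149 lower) with no normalization between arrays, 95 (95 higher, 0 lower) with normexp background correction, 6 (6 and 0) with the floor at the highest detection limit, 5 (5 and 0) with brightness added to the fit, 6 (6 and 0) over miRs that each of the 12 arrays detected, 95 (32 and 63) without the fold threshold and 69 (25 and 44) in the authors' table. In the limma fits with a count of 0 on one side, 0 miRs on that side had a fold of at least 2 at an unadjusted p under 0.05. Called higher were 19 when log2 processed signals were averaged and 24 over miRs detected on at least 1 array. Called lower were 27 with the 75th percentile over all rat miRs, 33 with quantile normalization, 11 with averaged log2 processed signals and 31 with a floor of 1 unit. The 66 miRs without overlap became 150 with no normalization, 126 with normexp, 26 with the floor at the highest limit, 22 over miRs detected on all 12 arrays and 19 by rank within the array. Effects that differed from 24 h (1 miR at a factor of 2) were 3 with quantile normalization, 0 with no normalization (2 at an unadjusted p under 0.05 in limma), 2 with a floor of 1 unit, 0 with the floor at the highest limit (0 at an unadjusted p under 0.05), 2 with slide as a block and 2 with brightness. Those that differed from 48 h (1 miR) were 3, 3, 115, 2, 0, 2 and 2 with the 75th percentile over all rat miRs, quantile normalization, no normalization, a floor of 1, the highest detection limit (2 at an unadjusted p under 0.05), slide and brightness.

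Some miRs turned direction. With no normalization these were let-7d* (-0.055), miR-183 (-2.27), miR-207 (-0.025), miR-21 (-1.35), miR-212 (-2.39), miR-328 (-0.74), miR-346 (-0.29), miR-34a (-2.53), miR-466b (-1.45), miR-539 (-0.86) and miR-672 (-1.45). That setting leaves in the difference in brightness, and the median over the 59 miRs detected on all 12 arrays was -2.64 there, against -0.06 in the main analysis, -0.26 with the 75th percentile over all miRs, 0.20 with normexp and -0.31 in the authors' table. With normexp they were miR-138 (1.42), miR-184 (0.44), miR-185 (1.35), miR-30e* (1.37), miR-329 (1.51), miR-376a (1.38), miR-379 (1.31), miR-410 (1.11), miR-495 (1.502) and miR-873 (1.69), none of them detected on an IR array. With brightness they were miR-207 (-0.94) and miR-346 (-0.996). The cause was not tested.

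Leaving out each array gave 27 to 35 calls, 12 to 14 higher and 14 to 23 lower, 66 to 73 miRs without overlap, 1 to 3 effects that differed from 24 h and from 48 h, a difference in detected miRs from -91.2 to -76.2 and in brightness from -2.66 to -2.40. Slide as a block gave 23 calls, 17 of them among the 29. Scan as a block gave 29. The replicate numbers did not pair the arrays (correlations of same-numbered deviations 0.10, 0.04, 0.25, -0.05, -0.03 and 0.30, and 1 of 12 arrays correlated best with its own number), and the fit with the replicate block gave 29 calls, the same 29. The slide as a random block and the within-array ratios, with their fits under slide, brightness and normexp, were chosen after seeing the data. The low signal over background of the IR arrays limits what can be said of miRs detected on none of them.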
